A study of Mus musculus with 9 samples.

Results

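The genes described here are 10 regulators of the RB pathway and of the G1 phase of the cell cycle, Cdkn2a, Cdkn2b, Cdkn2c, Cdkn1b, Cdkn1c, Cdk4, Cdk6, Ccnd1, Ccnd2 and Rb1. They were chosen by name, and all 10 have a probe set among the 22180 genes measured. Total RNA of frozen tissue was hybridised to 9 Affymetrix arrays of the type MoGene-2_0-st, 3 for each of 3 groups. The high-DOX P3 GBM group holds tumors of mice with the genotype hPDGF-A;hPDGFRα;p53lox on a diet with 600 mg/kg doxycycline (DOX) by the labels, while the study's text gives another dose for high DOX. The low-DOX P3 GBM group has the same genotype on 25 mg/kg DOX. The OPC lesion group, on 600 mg/kg DOX, carries the label hPDGFRα;p53, but the study's text describes it as p53 2lox mice that received the hPDGF-A-Cre lentivirus without the receptor transgene. In P3 mice the lentivirus, injected into the striatum of adults, brings constitutive Cre and DOX-inducible human PDGF-A. Cre switches on a human PDGFRα cDNA under the CAG promoter and deletes floxed p53. All groups share the floxed p53 allele and the virus, and the study states that the proliferating oligodendrocyte precursor cells (OPCs) of the lesions kept p53 expression. By that text the groups differ in p53 as well as in the receptor. The arrays are numbered as replicates, and no source says that they are separate mice, so the p-values describe the scatter of these samples, which may in part be technical.

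In G1, D-type cyclins (Ccnd1, Ccnd2) bind the kinases CDK4 and CDK6, and the active complexes phosphorylate the retinoblastoma protein RB, which then releases E2F factors to turn on the genes of DNA replication. The INK4 proteins p16 and p15 (Cdkn2a and Cdkn2b) and p18 (Cdkn2c) bind CDK4 and CDK6 and keep them from the cyclins, whereas p27 and p57 (Cdkn1b, Cdkn1c) act on cyclin-CDK complexes more broadly. Cdkn2a also encodes Arf from a second start, which protects p53 by holding back Mdm2. In human glioblastoma this pathway is often altered by loss of CDKN2A, gain of CDK4 or loss of RB1, and PDGF is a mitogen of OPCs.

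The values are log2 signals normalized by the authors with the robust multichip average (RMA) method, and every level or difference below is on that log2 scale. Array medians were between 4.55 and 4.83, and arrays of 1 group correlated with each other at r = 0.920 to 0.973. Markers of other cells differed between the arrays. The mean of 13 neuronal genes was 8.13, 10.52 and 6.55 in high-DOX replicates 1 to 3, 6.27, 5.36 and 6.23 in low-DOX replicates and 10.34, 5.99 and 8.92 in OPC lesion replicates. The mean of 10 fibroblast and meningeal genes was 9.78 in low-DOX replicate 3 and between 5.71 and 6.90 on the other arrays. That of 10 myelinating oligodendrocyte genes was 10.92 in low-DOX replicate 1 and between 6.59 and 8.78 on the other arrays. The mean of 7 choroid plexus genes was 7.68 in high-DOX replicate 2 and between 4.34 and 4.73 on the other arrays. Leaving out that array is therefore not a check on neuronal genes alone. Monocyte-derived macrophage genes averaged 4.51 to 4.68 in high-DOX tumors, 5.81 to 6.34 in low-DOX tumors and 4.38 to 5.05 in OPC lesions. Between the doses, all 13 neuronal genes were above 0 (median 2.20, 5 with an unadjusted p under 0.05). Below 0 were all 10 genes of myelinating oligodendrocytes (median -1.54, 4 with such a p), 9 of 11 microglial genes (median -1.24, 6 with such a p), 8 of 10 macrophage genes (median -1.05, 5 with such a p) and all 10 fibroblast and meningeal genes (median -1.51). None of these markers was called. The OPC markers, which define the labelled cell type, averaged 9.28 to 10.85 over all 9 arrays. In bulk tissue, fewer cells of a type and less RNA per cell cannot be told apart.

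None of the 10 genes passed an adjusted p of 0.05 in any comparison, and neither did any other gene (limma, Benjamini-Hochberg over 22180 genes, 0% called in each comparison). The D-type cyclins came nearest. Both had their lowest group mean in low-DOX tumors, and both lay lower there than on every OPC lesion array. Cdk4, Cdkn2c and Cdkn1b went with the mitotic genes from array to array, also with group means removed. The share of all genes that did so was not counted. Cdk6 and Cdkn1c each had 1 array far from its group, and Rb1 had the smallest standard error (0.263 between the doses).

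Ccnd2, the gene of cyclin D2, measured 11.01, 9.95 and 11.14 in high-DOX tumors, 9.56, 9.78 and 9.67 in low-DOX tumors and 10.48, 10.37 and 11.79 in OPC lesions. The 3 low-DOX values lay close together (SD 0.111) and below all 6 other arrays. High-DOX tumors averaged 10.70 ± 0.65 against 9.67 ± 0.111 in low-DOX tumors (SD, n = 3 each), a difference of 1.03 (standard error 0.432, 95% interval 0.03 to 2.03), or 2.04-fold. In limma this had an unadjusted p of 0.0449 and an adjusted p of 0.481, and the exact two-sided permutation test gave p = 0.1, the smallest that 3 against 3 arrays allow. Low-DOX tumors against OPC lesions differed by -1.21 (standard error 0.432, interval -2.21 to -0.21, adjusted p = 0.486), with the OPC lesions at 10.88 ± 0.789 (SD, n = 3). Without OPC lesion replicate 3, the highest array, that difference was -0.75 (unadjusted p = 0.0659 from limma). High-DOX tumors and OPC lesions overlapped, with a difference of -0.18 (standard error 0.432, interval -1.18 to 0.82).

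Ccnd1, the gene of cyclin D1, measured 11.63, 10.78 and 11.71 in high-DOX tumors, 10.72, 11.11 and 10.34 in low-DOX tumors and 11.11, 11.48 and 12.21 in OPC lesions. Low-DOX replicate 2 and OPC lesion replicate 1 both round to 11.11, and the OPC lesion value was the higher by less than the rounding. The low-DOX mean of 10.72 ± 0.385 stood below the OPC lesion mean of 11.60 ± 0.56 (SD, n = 3 each), a difference of -0.88 (standard error 0.36, interval -1.71 to -0.05, unadjusted p = 0.041, adjusted p = 0.497 from limma). Without OPC lesion replicate 3 it was -0.57 (unadjusted p = 0.141 from limma). Between the doses the arrays overlapped, with high-DOX tumors at 11.37 ± 0.51 (SD, n = 3) and a difference of 0.65 (standard error 0.36, adjusted p = 0.571). High-DOX tumors against OPC lesions gave -0.23 (interval -1.06 to 0.61). The low-DOX group, lowest on average in both cyclins, was also the one with the highest macrophage means (5.81 to 6.34) and with neuronal means of 5.36 to 6.27, and its means of myelinating oligodendrocyte (8.96), microglial (8.24) and fibroblast genes (7.80) were the highest of the 3 groups. The myelinating oligodendrocyte mean was raised by low-DOX replicate 1 (10.92, against 7.84 and 8.10 in replicates 2 and 3) and the fibroblast mean by replicate 3 (9.78). The part of any of these cell types in the cyclin values was not tested beyond the neuronal alternatives. With the neuron list mean as a covariate, the high-DOX against low-DOX difference was 1.25 for Ccnd2 and 1.0 for Ccnd1 (adjusted p = 0.708 for both). Without high-DOX replicate 2 and OPC lesion replicate 1, the arrays with the highest neuronal means, it was 1.40 and 0.95. The relation to the neuronal mean varied with the arrays used and with the removal of group means. Over all 9 arrays with group means left in, r was 0.32 for Ccnd2 and 0.13 for Ccnd1. Over the other 7 arrays, with group means left in, it was 0.82 and 0.67. With group means removed, over all 9 arrays, it was -0.27 and -0.50.

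**Figure D1:**
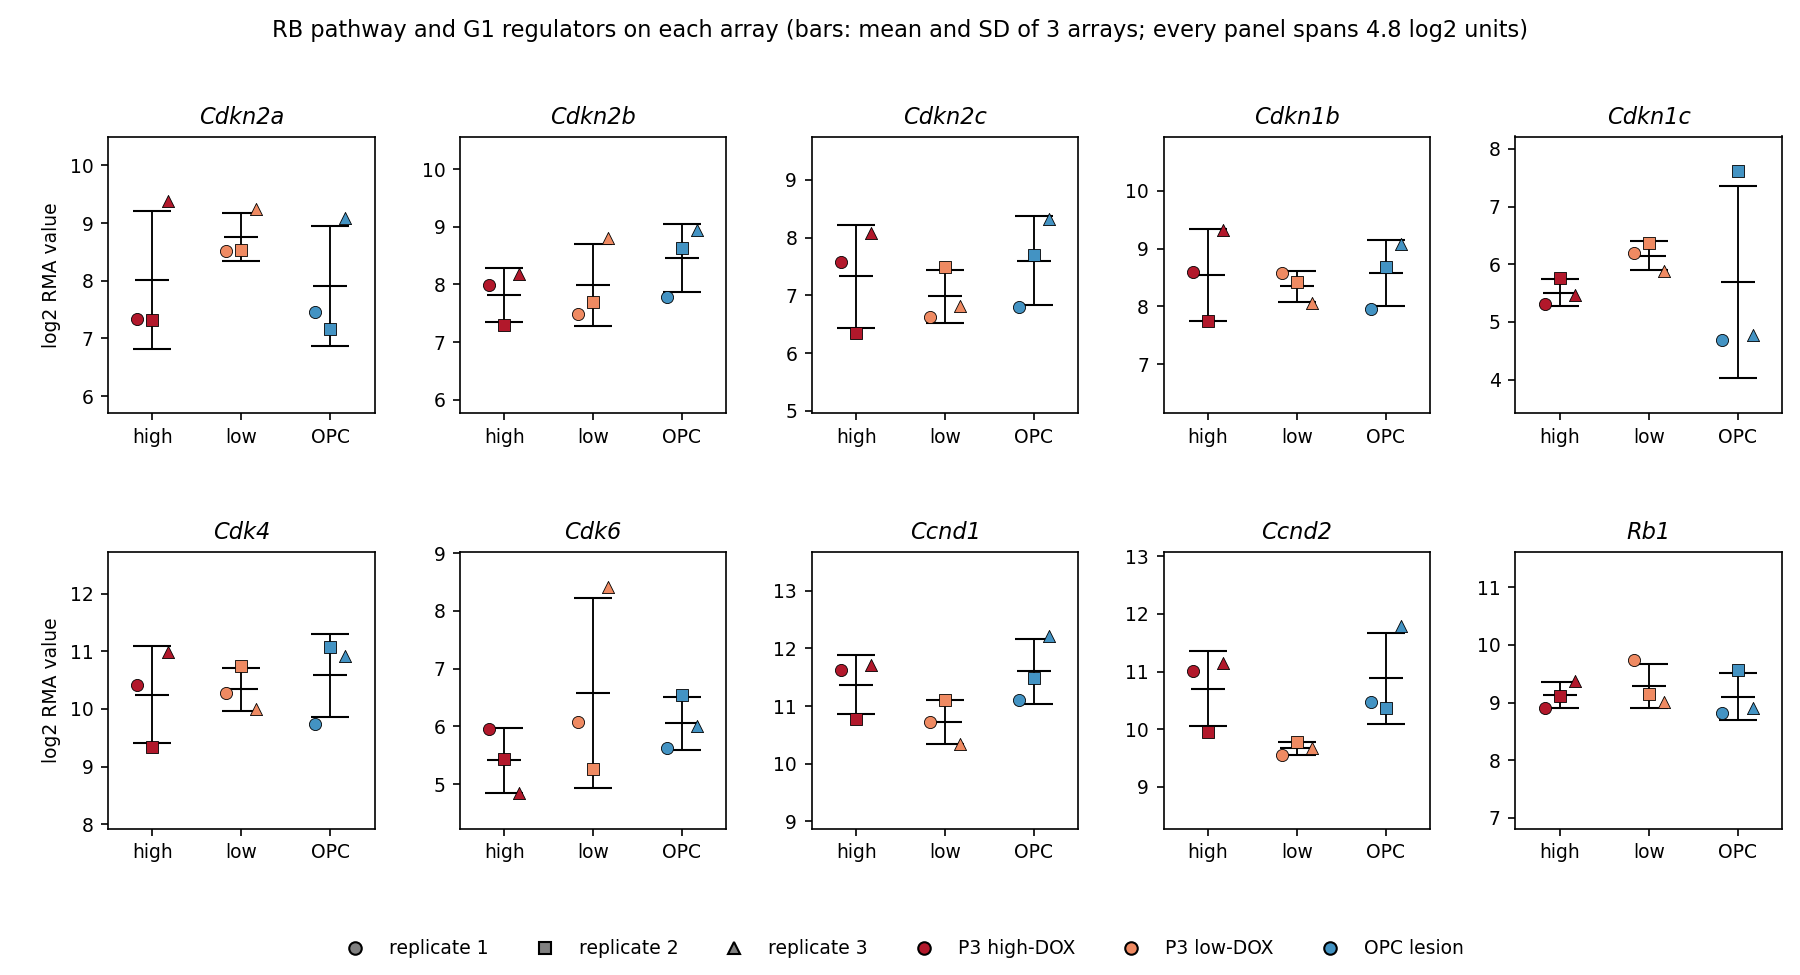
The log2 RMA value of each of the 10 genes on each array, in P3 high-DOX tumors, P3 low-DOX tumors and OPC lesions (points, marker shape by replicate number), with the mean and SD of the 3 arrays of a group as bars. The low-DOX values of Ccnd2 sit between 9.56 and 9.78, below the other 6 arrays, while Cdk6 reaches 8.41 in low-DOX replicate 3 and Cdkn1c 7.61 in OPC lesion replicate 2.

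Cdk4, the partner kinase of the D cyclins, measured 10.42, 9.34 and 10.99 in high-DOX tumors, 10.27, 10.74 and 10 in low-DOX tumors and 9.74, 11.07 and 10.92 in OPC lesions. The groups overlapped throughout. The lowest arrays were high-DOX replicate 2 and OPC lesion replicate 1, which were also the lowest for Cdkn1b and had the highest neuronal means. The dose difference of -0.09 (standard error 0.489, interval -1.22 to 1.04) changed sign to 0.76 with the neuron list mean as a covariate, to 0.37 without those arrays and to 0.03 with arrays centred on their medians, and none of these passed the test. Against OPC lesions, the differences were -0.33 in high-DOX tumors and -0.24 in low-DOX tumors (standard error 0.489 each). The low-DOX difference was -1.09 with the neuron list mean as a covariate (unadjusted p = 0.00804, adjusted p = 0.561 from limma) and -0.66 without both neuronal arrays (adjusted p = 0.583).

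The promoter of Cdk4 is shown because the gene's level varied with that of other members, and because of how often 1 short motif occurs in it. The window runs from 250 bases before to 50 after the gene's start in RefSeq (GRCm38.p6, chr10:127063285-127063584, + strand). Capitals mark CACGTG, the E-box bound by factors of the MYC and USF families, which reads the same on both strands.
Cdk4: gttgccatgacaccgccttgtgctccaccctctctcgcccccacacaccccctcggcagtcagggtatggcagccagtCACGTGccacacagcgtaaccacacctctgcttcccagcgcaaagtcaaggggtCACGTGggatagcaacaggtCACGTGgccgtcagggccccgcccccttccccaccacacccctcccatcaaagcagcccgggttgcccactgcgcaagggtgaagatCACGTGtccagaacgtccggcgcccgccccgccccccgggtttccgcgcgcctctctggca
The motif occurs 4 times, starting 172, 118, 98 and 11 bases before the start. It is found at least once in 7.15% of the 32851 promoter windows of this length, and 8 windows (0.0244%) hold 4 or more copies. Among the members, 6 had 8 windows in the table (no window was used for Ccnd1, Ccnd2, Cdkn1c and Rb1), and CACGTG was also present once each in the windows of Cdk6 and of the second Cdkn2c start. A match describes these letters only and is not a measured binding site.

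Cdk6, the second kinase of the D cyclins, measured 5.96, 5.43 and 4.84 in high-DOX tumors, 6.07, 5.26 and 8.41 in low-DOX tumors and 5.62, 6.54 and 6.0 in OPC lesions. Low-DOX replicate 3 was far above the others, which reached at most 6.54 (OPC lesion replicate 2). The dose difference of -1.17 (standard error 0.742, interval -2.89 to 0.55, adjusted p = 0.613) was the largest in size of any member in that comparison, and it was -0.25 without low-DOX replicate 3. Low-DOX tumors against OPC lesions differed by 0.53, and by -0.38 without that array. It is the array with the fibroblast and meningeal mean of 9.78, and the part of those cells in its Cdk6 value was not tested. The gene with the most similar pattern to Cdk6 over the 9 arrays was Col22a1, a collagen gene (r = 0.990), whose range was only 4.23 to 4.83.

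Cdkn2a, whose transcripts encode p16 and Arf, measured 7.33, 7.32 and 9.38 in high-DOX tumors, 8.51, 8.53 and 9.25 in low-DOX tumors and 7.45, 7.16 and 9.09 in OPC lesions. All 3 low-DOX arrays lay at 8.51 or more, whereas in the other groups replicate 3 lay in that range (9.38 in high-DOX tumors and 9.09 in OPC lesions) and the remaining arrays at 7.16 to 7.45. Low-DOX tumors averaged 8.76 ± 0.42 against 7.90 ± 1.04 in OPC lesions (SD, n = 3 each), a difference of 0.86 (standard error 0.679, interval -0.71 to 2.44, adjusted p = 0.677). High-DOX tumors, at 8.01 ± 1.19 (SD, n = 3), differed from low-DOX tumors by -0.75 (standard error 0.679, interval -2.33 to 0.82, adjusted p = 0.728). That difference was -1.44 without high-DOX replicate 3 (unadjusted p = 0.0382, adjusted p = 0.438), and against OPC lesions the high-DOX value of 0.11 turned to -0.58 without the same array.

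A single Cdkn2a probe set was used, so p16 and Arf cannot be told apart in these values. Their separate starts are shown because transcripts from 2 promoters may enter the value (RefSeq, GRCm38.p6, - strand, windows as above). Which of these transcripts the probe set reads was not determined. Capitals mark E2F motifs, searched as TTTCCCGC and TTTGGCGC on both strands.
Cdkn2a, upstream start, from which Arf is transcribed, chr4:89294570-89294869: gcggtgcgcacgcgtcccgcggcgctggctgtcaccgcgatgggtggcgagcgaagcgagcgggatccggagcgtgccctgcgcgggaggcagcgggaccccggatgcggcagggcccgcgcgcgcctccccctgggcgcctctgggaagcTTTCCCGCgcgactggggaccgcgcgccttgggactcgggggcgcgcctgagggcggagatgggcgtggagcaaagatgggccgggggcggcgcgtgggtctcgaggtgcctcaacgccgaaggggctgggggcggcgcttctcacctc
Cdkn2a, downstream start, from which p16 is transcribed, chr4:89282143-89282442: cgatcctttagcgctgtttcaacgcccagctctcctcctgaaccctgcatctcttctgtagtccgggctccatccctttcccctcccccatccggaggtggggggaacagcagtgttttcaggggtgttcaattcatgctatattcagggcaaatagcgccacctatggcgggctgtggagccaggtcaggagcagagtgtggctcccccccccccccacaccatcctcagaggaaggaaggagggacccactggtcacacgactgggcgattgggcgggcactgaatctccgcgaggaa
The upstream window has a G and C content of 77.0% and holds TTTCCCGC once, starting 99 bases before the start, and the downstream window has 60.3% and holds neither motif. One of the 2 motifs is present in 1.56% of all windows (514 of 32851), and no other member window holds one.

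Cdkn2b, the p15 gene next to Cdkn2a on chromosome 4, measured 7.99, 7.30 and 8.18 in high-DOX tumors, 7.48, 7.69 and 8.80 in low-DOX tumors and 7.79, 8.63 and 8.94 in OPC lesions. Groups overlapped, with differences from OPC lesions of -0.63 in high-DOX tumors and -0.47 in low-DOX tumors (standard error 0.436 each, adjusted p = 1 and 0.727 from limma). Over the 9 arrays it correlated with Cdkn2a at r = 0.40. The dose difference of -0.17 changed sign to 0.24 with the neuronal covariate.

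Cdkn2c, the p18 gene, measured 7.58, 6.34 and 8.08 in high-DOX tumors, 6.63, 7.49 and 6.81 in low-DOX tumors and 6.79, 7.70 and 8.32 in OPC lesions. No pair of groups separated. Low-DOX tumors were the lowest on average, by -0.62 against OPC lesions (standard error 0.527, interval -1.84 to 0.60), and high-DOX tumors differed from low-DOX tumors by 0.35 (interval -0.87 to 1.57). With the neuron list mean as a covariate these differences were -1.35 (unadjusted p = 0.0252, adjusted p = 0.576 from limma) and 1.08 (adjusted p = 0.709). Without high-DOX replicate 2 and OPC lesion replicate 1 they were -1.03 (unadjusted p = 0.0222, adjusted p = 0.556) and 0.85 (unadjusted p = 0.0446, adjusted p = 0.58). The gene most like it over the arrays was Tmpo, which encodes lamina-associated polypeptides of the nucleus, at r = 0.993, with values of 8.86, 7.68 and 9.27 in high-DOX tumors, 8.04, 8.70 and 7.95 in low-DOX tumors and 8.16, 8.91 and 9.56 in OPC lesions.

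Cdkn1b, the p27 gene, measured 8.59, 7.74 and 9.33 in high-DOX tumors, 8.57, 8.42 and 8.06 in low-DOX tumors and 7.96, 8.69 and 9.08 in OPC lesions. Its groups overlapped, with differences of 0.20 between the doses, -0.03 for high-DOX tumors and -0.23 for low-DOX tumors against OPC lesions (standard error 0.427 each). p27 is known to be set largely by protein turnover, which arrays do not measure.

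Cdkn1c, the imprinted p57 gene, measured 5.31, 5.76 and 5.47 in high-DOX tumors, 6.20, 6.37 and 5.88 in low-DOX tumors and 4.68, 7.61 and 4.77 in OPC lesions. High-DOX values were all below low-DOX values, and OPC lesions held both the lowest values and the highest. The dose difference of -0.63 (standard error 0.705, adjusted p = 0.779, exact p = 0.1) changed sign to 0.25 with the neuron list mean as a covariate. It kept its sign, at -0.76, without high-DOX replicate 2 and OPC lesion replicate 1. All groups share 1 estimate of the spread, and OPC lesion replicate 2 enters it. Without that array the dose difference had an unadjusted p of 0.00885 and an adjusted p of 0.253, and low-DOX tumors stood above OPC lesions by 1.42 (adjusted p = 0.0864 from limma), against 0.46 with all arrays. Across the arrays Cdkn1c ran against the neuronal mean (r = -0.66, exact permutation p = 0.0474, adjusted p = 0.189 over 20 relations, Spearman's rho adjusted p = 0.0691), and r was -0.76 without the arrays with the highest neuronal means.

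Rb1, the gene of RB itself, measured 8.91, 9.11 and 9.37 in high-DOX tumors, 9.73, 9.14 and 9.01 in low-DOX tumors and 8.82, 9.56 and 8.91 in OPC lesions. All groups overlapped and every interval included 0, with differences of -0.16 between the doses (interval -0.77 to 0.45), 0.04 for high-DOX tumors (interval -0.57 to 0.64, or -0.03 with arrays centred on their medians) and 0.20 for low-DOX tumors (interval -0.41 to 0.80) against OPC lesions. A second Rb1 probe set lay at 2.98 to 3.20 on every array, and the 2 probe sets that also name Lpar6, a gene within an Rb1 intron, were not used.

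Read against all genes, the members' counts were of the size of the background. Between the doses, 2 of 10 had groups that did not overlap (Ccnd2 with high-DOX above, Cdkn1c with high-DOX below) where 16% of all genes did, and 1 of 10 (Ccnd2) had an unadjusted p under 0.05 where 10.1% (2248) of all genes did. For low-DOX tumors against OPC lesions, 2 of 10 did not overlap (Ccnd1 and Ccnd2, both with low-DOX below) beside 14.3% of all genes, and the same 2 had an unadjusted p under 0.05 beside 9.82% (2178). For high-DOX tumors against OPC lesions 0 of 10 did either, beside 6.36% and 1.62% (360) of all genes. With both doses pooled as P3 GBM against OPC lesion, 0 of 10 did either, beside 1.83% and 3.85% (855). A 2-sample test without moderated variances, run as an alternative, also called 0 genes after adjustment in each comparison, and for low-DOX tumors against OPC lesions its unadjusted p was 0.0587 for Ccnd2 and 0.0885 for Ccnd1. In the pooled comparison 7 of 10 members were below 0 (median -0.20) beside a median of -0.01 over all genes. Centring the arrays on the median of all probe sets moved that median by -0.12, and by 0.11 between the doses, -0.07 for high-DOX tumors and -0.18 for low-DOX tumors against OPC lesions. The largest pooled differences were those of Ccnd2 at -0.69 (standard error 0.374), Ccnd1 at -0.55 (standard error 0.312) and Cdkn2b at -0.55 (standard error 0.377). Without OPC lesion replicate 3 they were -0.24, -0.25 and -0.31. The 3 comparisons with OPC lesions share those 3 arrays.

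**Figure D2:**
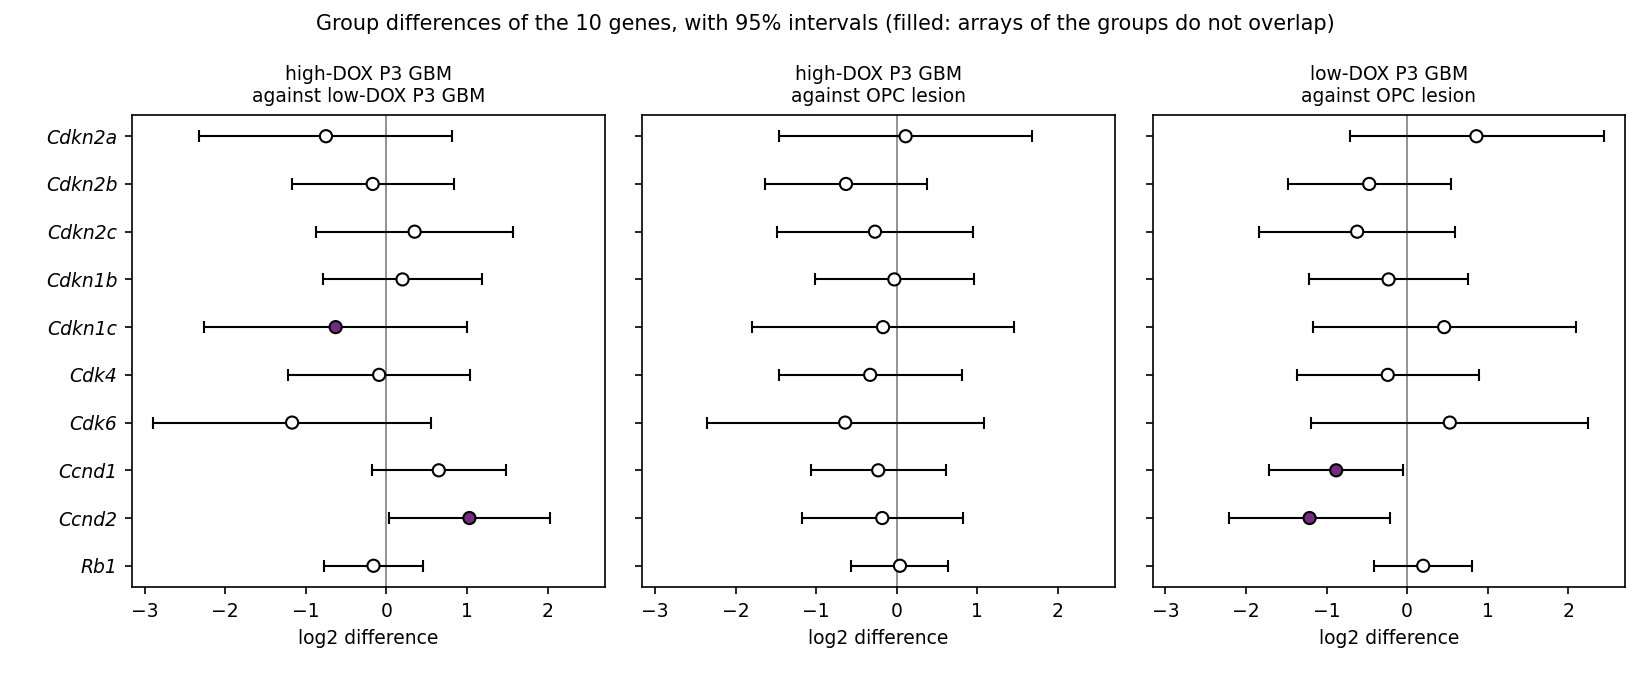
The fitted log2 difference of each of the 10 genes in high-DOX against low-DOX P3 GBM, in high-DOX P3 GBM against OPC lesion and in low-DOX P3 GBM against OPC lesion, with 95% intervals as bars. Filled points mark genes whose arrays do not overlap between the groups. The interval excludes 0 for Ccnd2 in the left panel (0.03 to 2.03) and for Ccnd1 and Ccnd2 in the right panel, before adjustment over genes.

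The wider pathway also gave differences that were not called, and not all of them were small. Of 24 other RB pathway and G1 genes, 23 were measured and none passed the test in either direction, with 16 of 23 below 0 in P3 GBM against OPC lesion (median -0.17) and 15 of 23 above 0 between the doses (median 0.03). Cdkn1a, the p21 gene and a p53 target, had the largest difference from OPC lesions, with a mean of 8.69 in high-DOX tumors, 8.12 in low-DOX tumors and 9.42 in OPC lesions, a difference of -1.02 (standard error 0.571, adjusted p = 0.974 from limma) with overlapping arrays. E2f6, a repressive E2F, was lower on every P3 array, at 6.49 to 7.02 in high-DOX tumors and 6.59 to 6.94 in low-DOX tumors against 7.23 to 7.50 in OPC lesions, a difference of -0.57 (standard error 0.157, unadjusted p = 0.00708, adjusted p = 0.974). E2f2, an activating E2F, followed at -0.49 (standard error 0.359). Ccne1, the gene of cyclin E1, which drives CDK2 at the entry to S phase, was at -0.48 (standard error 0.189, unadjusted p = 0.0354, adjusted p = 0.974 from limma). Between the doses, Cdkn2d, the INK4 gene of p19, was 7.18 to 7.85 in high-DOX tumors against 6.54 to 7.17 in low-DOX tumors (difference 0.62, standard error 0.225, unadjusted p = 0.0252, adjusted p = 0.438). Ccne1 was 6.22 to 6.69 against 5.45 to 6.14 in those groups (difference 0.59, standard error 0.219, adjusted p = 0.44). The third gene with an unadjusted p under 0.05 went the other way. It was E2f4, a repressive E2F named here after its value was seen, at 8.25 to 8.42 in high-DOX tumors against 8.49 to 8.70 in low-DOX tumors (difference -0.29, standard error 0.122, adjusted p = 0.48). Fbxw7, which marks cyclin E for degradation, differed by 0.92 (standard error 0.748) with overlapping arrays.

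All 28 measured E2F target genes of S phase were below 0 in P3 GBM against OPC lesion, with a median of -0.39, where 48.8% of all genes were above 0. None passed the test, and 1 had an unadjusted p under 0.05. That gene was Rrm2, the small subunit of ribonucleotide reductase, with a mean of 6.56 in high-DOX tumors, 6.81 in low-DOX tumors and 7.73 in OPC lesions (difference -1.05, standard error 0.45, unadjusted p = 0.0486, adjusted p = 0.974). Gins1, of the replicative helicase, was at -0.81 and Chaf1b, of a histone chaperone, at -0.71. The list mean was 7.06, 6.34 and 7.70 in high-DOX tumors, 6.72, 7.15 and 6.99 in low-DOX tumors and 6.61, 7.77 and 7.77 in OPC lesions. OPC lesion replicate 1 thus lay within the range of the tumors, and the other lesions above every tumor array. Genes of 1 list vary together from array to array, so 28 genes below 0 are not 28 separate observations. Between the doses 19 of 28 were above 0 (median 0.10), led by Mcm2 at 0.51, Rrm1 at 0.43 and Prim1 at 0.43. Of the 19 measured mitotic genes, 14 were below 0 against OPC lesions (median -0.19), led by Plk1 at -0.57, Cdk1 at -0.39 and Kif11 at -0.39. Between the doses 14 of 19 were above 0 (median 0.14), and the largest differences were -0.49 for Ccnb2, 0.47 for Cenpf and 0.44 for Kif11. None of the 19 was called.

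The regulators of the Ink4a/Arf locus, among them Polycomb genes that silence it, showed no shared direction. Of 13 genes, 7 were above 0 against OPC lesions (median 0.10, or -0.02 with arrays centred on their medians) and 7 between the doses (median 0.02), and none was called. Twist1, a repressor of the locus, had the largest difference of the list in both, at 0.60 against OPC lesions and -0.82 between the doses. Against OPC lesions it was followed by Kdm6b, a demethylase that removes the Polycomb mark, at 0.38 and by Tbx3, another repressor of the locus, at 0.32. Between the doses Tbx3 was at -0.54 and Cbx7, a Polycomb subunit, at 0.27. The highest values of Twist1 and Tbx3, 7.57 and 7.49, were both on low-DOX arrays, where the other arrays of the series reached at most 5.16 and 6.13 outside that group.

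Some of the members followed proliferation genes from array to array. How many of all genes followed them as closely was not counted, so these relations cannot be called particular to the members. The mean of the 19 mitotic genes was 7.87, 6.51 and 8.64 in high-DOX tumors, 7.10, 7.89 and 7.71 in low-DOX tumors and 6.66, 8.19 and 8.44 in OPC lesions. Cdkn2c followed it at r = 0.92 over the 9 arrays (exact permutation p = 3.2e-04, adjusted p = 0.00559 over 20 relations, Spearman's rho = 0.95, adjusted p = 0.00705). Cdk4 did so at r = 0.92 (exact p = 5.6e-04, adjusted p = 0.00559, rho = 0.93, adjusted p = 0.0075), and Cdkn1b at r = 0.87 (exact p = 0.00308, adjusted p = 0.0205, rho = 0.92, adjusted p = 0.00874). Within groups, with group means removed, r was 0.96, 0.93 and 0.87 for Cdkn2c, Cdk4 and Cdkn1b. Without high-DOX replicate 2 and OPC lesion replicate 1, the arrays farthest from the median of the mitotic mean, r was 0.93, 0.78 and 0.71. Those arrays also had the highest neuronal means, and the share of tumor tissue in each sample was not measured. Cdkn2c and Cdkn1b, which encode CDK inhibitors, were thus high where mitotic genes were high.

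**Figure D3:**
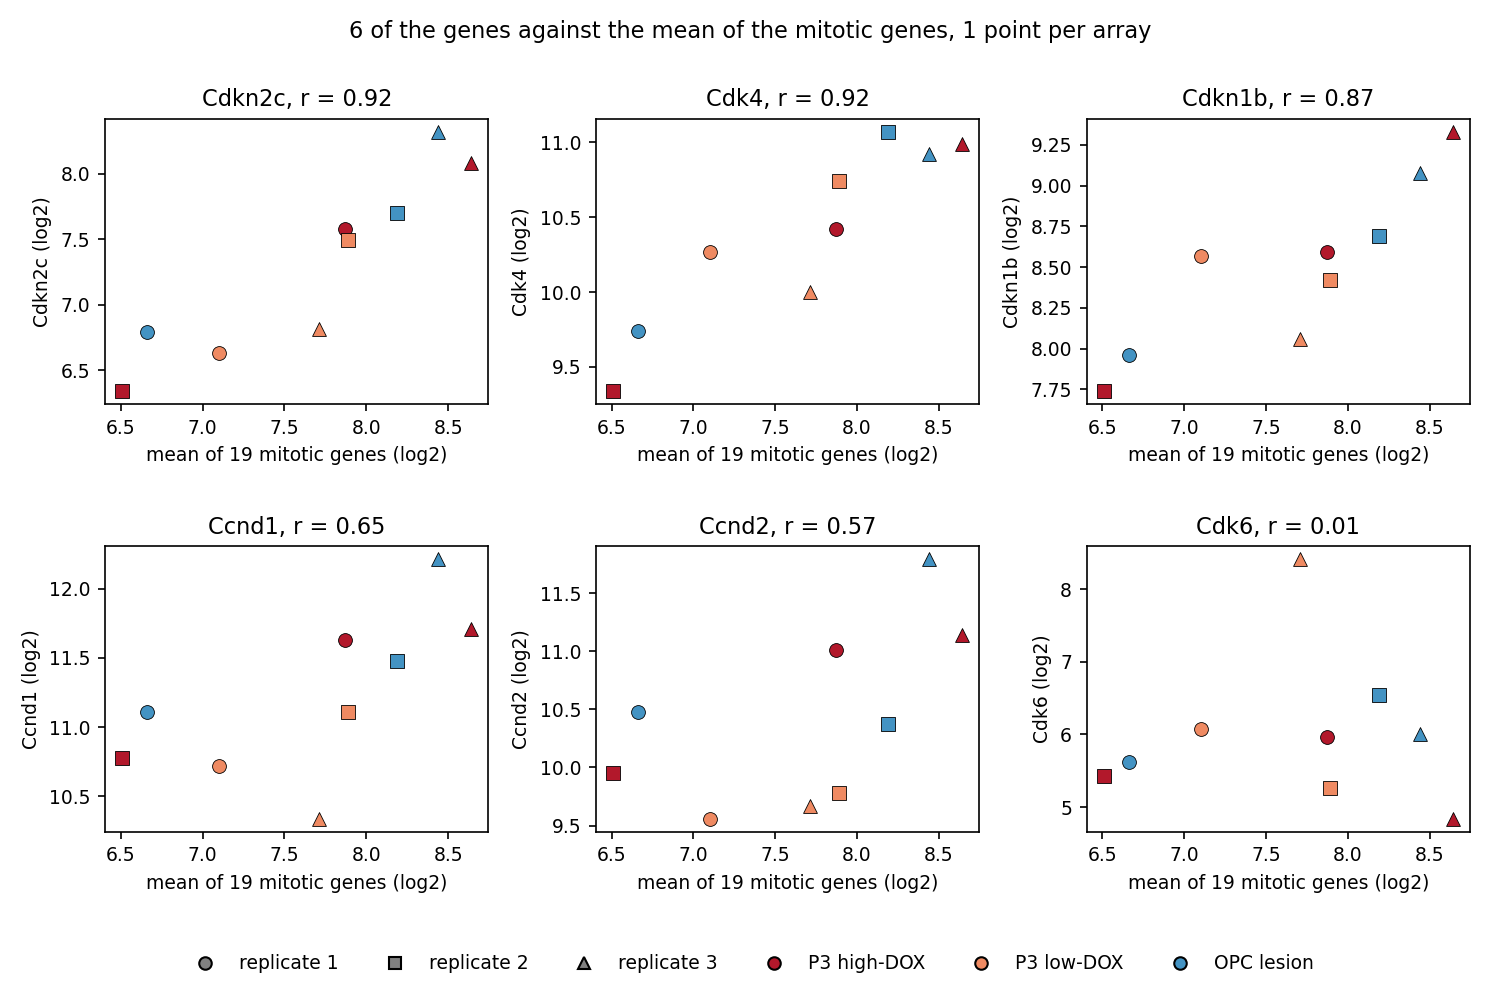
The log2 value of Cdkn2c, Cdk4, Cdkn1b, Ccnd1, Ccnd2 and Cdk6 on each of the 9 arrays (y axes) against the mean log2 value of 19 mitotic genes on the same array (x axes), coloured by group. Cdkn2c, Cdk4 and Cdkn1b lie along a rising band (r = 0.92, 0.92 and 0.87), the low-DOX arrays lie low for Ccnd1 and Ccnd2, and Cdk6 shows no such band (r = 0.01).

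The other members did not pass in this relation. Pearson's r with the mitotic mean was 0.70 for Cdkn2b (exact p = 0.0386, adjusted p = 0.189), 0.65 for Ccnd1, 0.57 for Ccnd2 and 0.51 for Cdkn2a. It was 0.15 for Cdkn1c, 0.12 for Rb1 and 0.01 for Cdk6. With group means removed, r was 0.79 for Ccnd1, 0.76 for Cdkn2b, 0.74 for Ccnd2 and 0.63 for Cdkn2a. Without high-DOX replicate 2 and OPC lesion replicate 1 it was 0.76, 0.56, 0.78 and 0.17 for these genes. On those remaining arrays Ccnd1 and Ccnd2 thus followed the mitotic mean about as closely as Cdk4 (0.78) and Cdkn1b (0.71). With the mean of the neuronal genes, none of the 10 relations passed. The most negative with group means left in were Cdkn1c at -0.66 and Cdk4 at -0.63 (adjusted p = 0.204). With group means removed, r with the neuronal mean was -0.89 for Cdk4, -0.72 for Cdkn1b, -0.71 for Cdkn2c and -0.64 for Cdkn1c. Without high-DOX replicate 2 and OPC lesion replicate 1, with group means left in, it was 0.09, 0.42, 0.51 and -0.76 for these genes. The promoters of the other members that followed the mitotic mean are given for comparison with that of Cdk4 (RefSeq, GRCm38.p6), and neither of the windows shown holds CACGTG or the E2F motifs, so no letters are in capitals. The window of the second Cdkn2c start, not shown, holds CACGTG once.
Cdkn2c, first start, chr4:109666707-109667006, - strand: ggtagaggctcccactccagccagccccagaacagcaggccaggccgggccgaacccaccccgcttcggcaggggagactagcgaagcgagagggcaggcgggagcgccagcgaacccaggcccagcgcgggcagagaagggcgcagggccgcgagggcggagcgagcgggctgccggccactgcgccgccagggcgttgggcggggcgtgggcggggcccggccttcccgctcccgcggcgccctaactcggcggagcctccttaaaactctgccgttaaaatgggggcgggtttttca
Cdkn1b, chr6:134920151-134920450, + strand: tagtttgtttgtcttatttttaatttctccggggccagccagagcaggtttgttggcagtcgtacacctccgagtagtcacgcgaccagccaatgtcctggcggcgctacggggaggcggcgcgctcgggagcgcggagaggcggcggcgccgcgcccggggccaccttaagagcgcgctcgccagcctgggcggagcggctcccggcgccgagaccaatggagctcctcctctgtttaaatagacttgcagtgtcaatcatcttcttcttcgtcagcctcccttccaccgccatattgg
Their G and C content was 73.3% and 62.0%, and that of the Cdk4 window was 67.0%.

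Among the members themselves, the closest pair with group means left in was Ccnd2 and Ccnd1, at r = 0.93 over the 9 arrays, given as a description. Cdk4, Cdkn2c and Cdkn1b formed a second set, at 0.88 to 0.89 for its 3 pairs. With group means removed the cyclin pair was at 0.87, below Cdk4 with Cdkn2c (0.93) and Cdkn1b (0.92), Ccnd1 with Cdkn2c (0.92) and Cdkn2c with Cdkn1b (0.89). Ccnd1 was then also at 0.86 with Cdkn1b and 0.84 with Cdk4, so the sets did not stand apart for Ccnd1. Ccnd2 was at 0.76 with Cdkn1b and 0.62 with Cdk4. With group means left in, Cdkn2c joined both sets, at 0.88 with Ccnd1 and 0.79 with Ccnd2. Cdk6 was negative with Ccnd1 (-0.47) and Ccnd2 (-0.33), and Cdkn1c was at -0.52 with Ccnd2 and 0.72 with Rb1. All points share the same arrays and their mixture of cells.

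**Figure D4:**
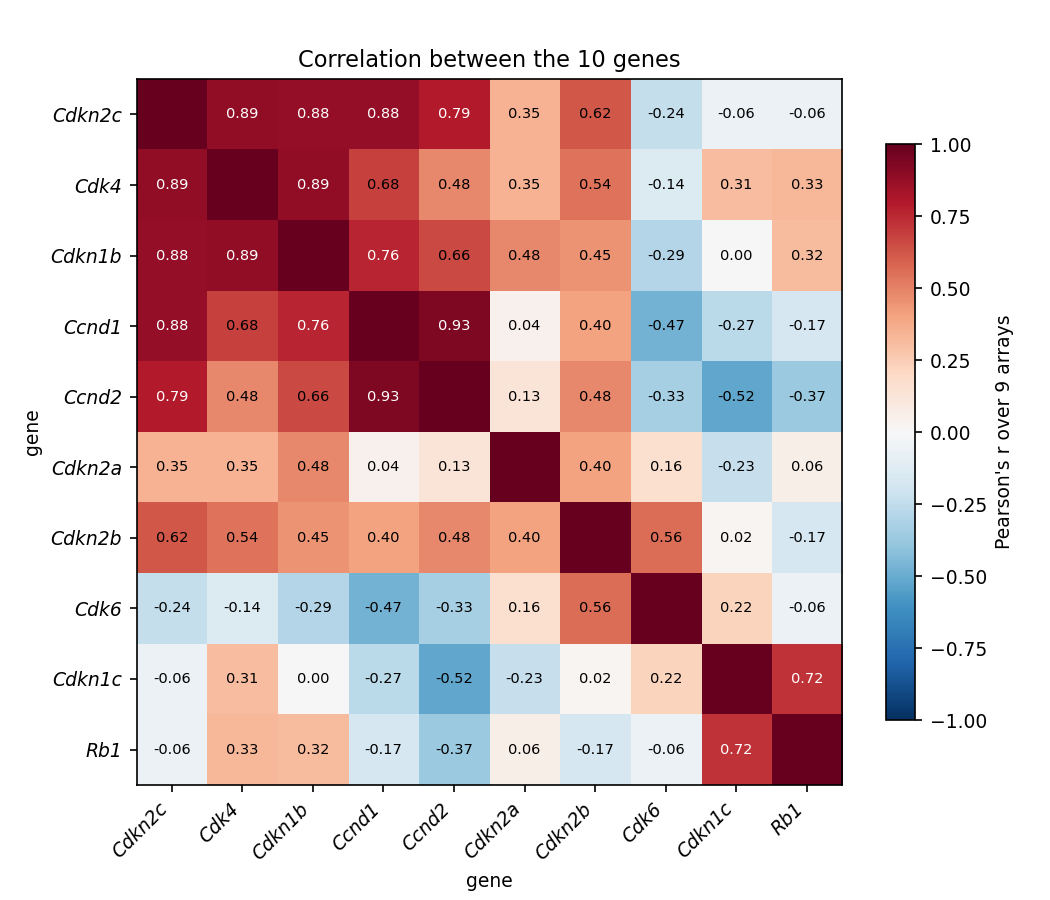
Pearson's r over the 9 arrays between each pair of the 10 genes, with genes on both axes and colour from -1 (blue) to 1 (red). Cdkn2c, Cdk4, Cdkn1b, Ccnd1 and Ccnd2 form a block of positive values, from 0.48 to 0.93, while Cdk6 is below 0 with each of them.

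The gene most alike to each member over the 9 arrays, out of all others measured, reached r = 0.940 to 0.994, as the highest of many candidates over few arrays. For Ccnd1 it was Tspan12, a tetraspanin (r = 0.968), at 9.52, 9.06 and 9.76 in high-DOX tumors, 8.72, 9.44 and 8.28 in low-DOX tumors and 9.11, 9.47 and 10.28 in OPC lesions. For Ccnd2 it was Slitrk2, a synaptic adhesion gene (r = 0.940), at 9.22, 8.20 and 9.04 in high-DOX tumors, 7.56, 8.42 and 7.84 in low-DOX tumors and 8.26, 8.65 and 9.64 in OPC lesions. For Rb1 it was the formin gene Fmnl2 (r = 0.958), and for Cdkn1b the zinc finger gene Zfp825 (r = 0.986, values 7.13 to 7.82). The genes most like Cdk4 (Gpr55, r = 0.994), Cdkn2a (Prl8a1, r = 0.958), Cdkn2b (Gm11691, r = 0.962) and Cdkn1c (4933431K23Rik, r = 0.974) had their highest values at 4.6, 3.33, 3.28 and 4.70.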

How the data were processed

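Total RNA of 9 samples was measured on 1-colour Affymetrix arrays. The deposited values are log2 signals, normalized by the authors with RMA in R and Bioconductor (versions not given in the sources used here). The methods then name the SVA method, and whether these values precede that step is not stated. Of 41345 probe sets, 23521 name 1 gene, 1820 several and 16004 none. The first kind was used, and the 1082 genes with several such probe sets were represented by the one brightest on average, which gave 22180 genes, and no filter. Identifiers of 23328 probe sets matched RefSeq (GRCm38.p6), which also gave the promoter windows.

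Each comparison was a contrast of 1 limma 3.58.1 fit (R 4.3.3) over all 9 arrays, without a replicate block, with Benjamini-Hochberg adjustment over all genes and a threshold of 0.05. The fit was tested on simulated data. Exact permutation tests used scipy 1.17.1, with numpy 2.4.6, pandas 2.3.3 and matplotlib 3.10.9 in Python 3.11.15. The genes named are all members, the 3 genes of each pathway list with the largest differences in P3 GBM against OPC lesion and the 3 between the doses, and for each member the gene of highest Pearson's r. The members and lists were chosen with earlier results of these data known. Alternatives were centred arrays, a filter on the lowest 25% of genes, averaged probe sets per gene, a variance trend, only the groups compared, a replicate block, the two-tailed Student's t-test, the neuron list mean as a covariate, omission of both arrays with high neuronal genes and omission of each array. Same-numbered samples did not deviate together (r = -0.48 to 0.27).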

Additional observations from a re-analysis of the deposited data

How the results depend on the processing

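No member passed the threshold under any alternative that was run, in any comparison, and the replicate block also called 0 genes. No label says whether the replicate numbers pair the samples. With the block, the unadjusted limma p of Cdkn2a was 0.0287 for low-DOX tumors against OPC lesions (0.24 without it, adjusted p = 0.648 with it). Between the doses it was 0.0462 (0.299 without the block, adjusted p = 0.62 with it). Over all genes, leaving out 1 array gave 0 to 1 calls between the doses and 0 to 4 for low-DOX tumors against OPC lesions, with 4 without OPC lesion replicate 2. In the alternatives without an array left out, counting each member's difference once per alternative, 332 kept their direction and side of the threshold and 18 changed sign. With the neuron list mean as a covariate these were, in P3 GBM against OPC lesion, Cdkn1c (-0.30) and Rb1 (-0.02), between the doses Cdkn2b (0.24), Cdkn1c (0.25), Cdk4 (0.76) and Rb1 (0.11), and in low-DOX tumors against OPC lesions Cdkn1c (-0.42) and Rb1 (-0.08). Without both arrays of high neuronal genes they were Cdkn1c (-0.42) and Rb1 (-0.02) in P3 GBM, Cdkn2b (0.10) and Cdk4 (0.37) between the doses, Cdkn1b (0.07) and Rb1 (-0.09) in high-DOX tumors and Cdkn1c (-0.04) in low-DOX tumors against OPC lesions. Centring turned Rb1 in P3 GBM (-0.01) and high-DOX tumors (-0.03) against OPC lesions and Cdk4 between the doses (0.03). Leaving out 1 array turned the sign of 22 differences, none called. In P3 GBM against OPC lesion the ranges were -0.43 to 0.13 for Cdkn1b, -0.36 to 1.10 for Cdkn1c, -0.51 to 0.28 for Cdk6 and -0.02 to 0.35 for Rb1. Between the doses they were -0.42 to 0.24 for Cdkn2b, -0.02 to 0.85 for Cdkn2c, -0.19 to 0.61 for Cdkn1b, -0.46 to 0.37 for Cdk4 and -0.30 to 0.06 for Rb1. In high-DOX tumors against OPC lesions they were -0.58 to 0.71 for Cdkn2a, -0.67 to 0.23 for Cdkn2c, -0.42 to 0.38 for Cdkn1b, -0.68 to 0.79 for Cdkn1c, -0.74 to 0.13 for Cdk4, -0.47 to 0.08 for Ccnd1, -0.43 to 0.28 for Ccnd2 and -0.10 to 0.27 for Rb1. In low-DOX tumors against OPC lesions they were -0.54 to 0.02 for Cdkn1b, -0.04 to 1.42 for Cdkn1c, -0.66 to 0.01 for Cdk4, -0.38 to 1.19 for Cdk6 and -0.02 to 0.43 for Rb1. The cause of these changes was not tested. With 3 arrays a group and no detection value for a probe set, small differences and low signals could not be resolved.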
